A study of Homo sapiens with 4 samples.

Results

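The genes ACTB, ACTG1, TUBA1A, TUBA1B, TUBA1C, TUBB, TUBB2A, TUBB3, TUBB4B and TUBG1 encode the cytoplasmic actins and common tubulins, and several of them serve as reference genes in expression work. They were taken by symbol from the annotation, which makes 10 of the 19881 protein-coding genes with a canonical start site, the start of the transcript marked as canonical. For each, the peaks within 1000 bp of that start site or inside the gene body were read from the list of new MBD-seq peaks of cells with the wild type EpiEditor. In MBD-seq, sheared genomic DNA is pulled down with GST-MBD2, a protein that binds methylated CpGs, and sequenced, so that a peak marks a place where many methylated fragments were recovered.

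The cells were HEK293, a line derived from human embryonic kidney, and 4 conditions were sequenced with a single library for each. Cells of the wild type library (Ab-3A3L WT) were transiently transfected with dCS, a dCas9 carrying a SunTag array of 10 repeats. They also received Ab-3A3L (an antibody fragment fused to DNMT3A and DNMT3L, which binds the array) and a sgRNA against the ISG15 promoter. They were sorted for expression of the components 3 days later. Wild type refers to the DNMT3A of the EpiEditor, not to the cells. Untreated cells are the sample against which the authors called peaks new, and the K844E and R887E libraries carried the same system with 1 changed residue in DNMT3A. Values below are from the wild type list, and the mutant libraries were not analysed here. No cytoskeletal gene was a target of the sgRNA, so peaks at these genes address methylation away from the target. A peak list holds no expression, so the cell line could not be checked against marker genes, and without replicates no difference between genes could be tested.

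As background, actin polymerizes into filaments, and ACTB and ACTG1 encode the β- and γ-actin found in nearly all cells. An α- and a β-tubulin form the dimer from which microtubules are built, while γ-tubulin nucleates them at the centrosome. Their genes mostly start in CpG islands, stretches rich in CpGs that are as a rule unmethylated at active promoters, and methylation of such islands is associated with silencing.

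In the wild type list, 9 of the 10 genes had a new peak within 1000 bp of the start site. They were ACTB, ACTG1, TUBA1A, TUBA1B, TUBA1C, TUBB2A, TUBB3, TUBB4B and TUBG1. TUBB had none, at its start site or in its body. Among all 19881 protein-coding genes counted in the same way, 8364 had such a peak, or 42.1% (95% exact binomial interval 41.4% to 42.8%). The interval covers counting error only and treats genes as independent, although neighbours can share a peak. All 10 genes start inside a CpG island, and of the 13111 protein-coding genes that do, 7895 had a peak, or 60.2%. When peaks below the median fold were left out, 3 of the 10 genes (ACTG1, TUBA1A and TUBA1B) had one, against 25.9% of all coding genes. With the gene body included, the count was also 9 of 10, against 48.1% of protein-coding genes. The stretches below, in hg19 and on the strand of the gene, are those nearest to the summit outside untranslated exons for 4 of the genes, and for TUBB the bases before its start site. They are shown because the pulldown reads methylated CpGs, and each CpG is in capitals.
TUBA1B, chr12:49525238-49525357, minus strand: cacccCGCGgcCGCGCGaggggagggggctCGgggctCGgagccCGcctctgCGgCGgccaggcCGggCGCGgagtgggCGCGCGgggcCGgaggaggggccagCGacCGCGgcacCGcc
TUBB2A, chr6:3157556-3157675, minus strand: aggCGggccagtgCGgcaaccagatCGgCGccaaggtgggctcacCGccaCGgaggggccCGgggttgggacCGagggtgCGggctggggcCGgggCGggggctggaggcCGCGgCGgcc
TUBB3, chr16:89989860-89989979, plus strand: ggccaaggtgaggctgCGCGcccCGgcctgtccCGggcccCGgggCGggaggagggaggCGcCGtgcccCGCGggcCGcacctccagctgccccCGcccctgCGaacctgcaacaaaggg
TUBB4B, chr9:140135005-140135124, plus strand: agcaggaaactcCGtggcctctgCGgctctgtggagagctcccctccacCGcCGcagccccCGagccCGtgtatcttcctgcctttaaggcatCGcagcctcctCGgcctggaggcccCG
TUBB, chr6:30687879-30688128, plus strand: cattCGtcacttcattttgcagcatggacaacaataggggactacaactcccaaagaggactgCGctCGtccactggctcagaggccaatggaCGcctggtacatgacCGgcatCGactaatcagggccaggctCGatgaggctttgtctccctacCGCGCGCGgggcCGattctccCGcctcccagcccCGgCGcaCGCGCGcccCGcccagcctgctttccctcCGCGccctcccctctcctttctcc
The stretches of 120 bases hold 21 CpGs at TUBA1B, 14 at TUBB2A, 13 at TUBB3 and 9 at TUBB4B, and each holds the summit. Those of ACTG1, TUBA1C and TUBG1 do not hold the summit and are not shown. They have 8 CpGs in 120 bases, 10 in 120 and 4 in 103. The 250 bases before the TUBB start site hold 21.

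For each peak the list gives a fold, the enrichment at the summit over a local background, and a −log10 q. From the fold and the p-value together, the number of fragments at the summit and the background rate could be recovered for every peak of the list. Medians over the list were 7.45 for the fold, 18 for the fragments and 0.966 fragments for the background rate. Intervals on folds and fragments below are exact Poisson intervals at 95% with the background rate held fixed, and cover counting error only. Every word of 100 bases in the strongest peak of each of the 9 genes occurs once in the GRCh37 primary assembly, although actins and tubulins have many near copies.

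**Figure D1:**
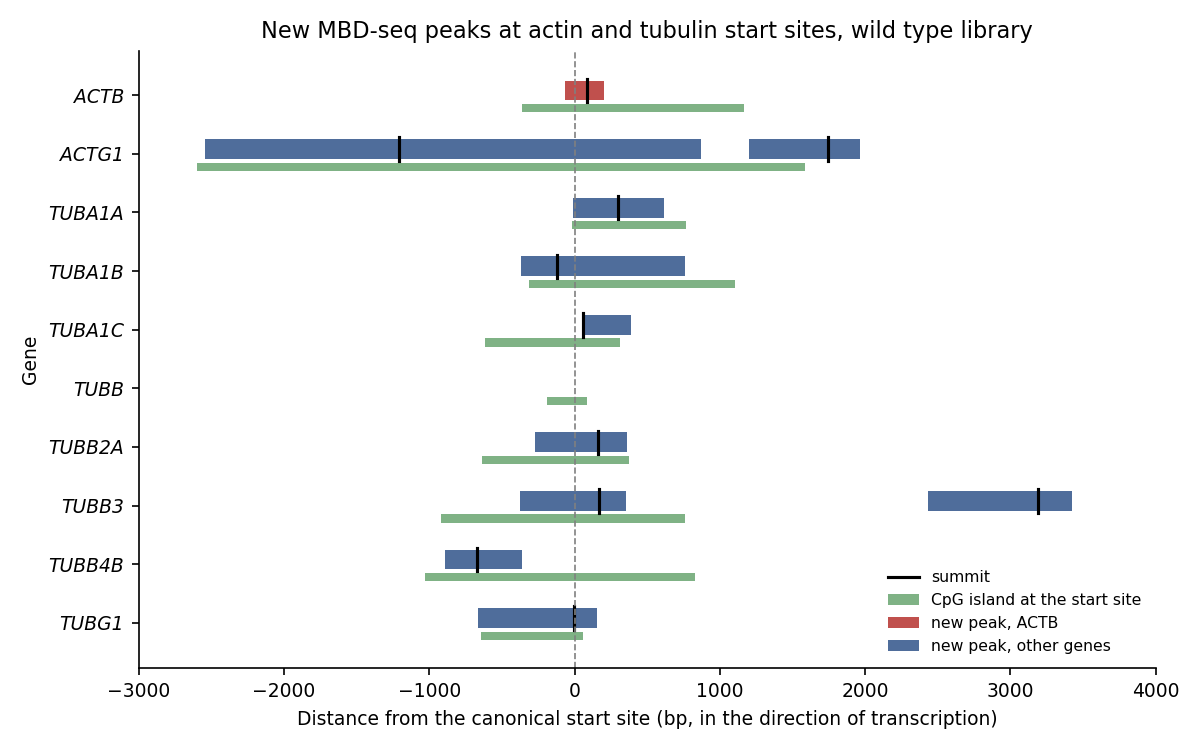
New peaks (thick bars, black line at the summit) and CpG islands (green) against the distance from the canonical start site in bp, in the direction of transcription, for the 10 genes in the wild type library. The ACTB peak spans 269 bp around its start site, the ACTG1 peak spans 3413 bp, the TUBB4B peak ends 360 bp before the start site, and TUBB has none.

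At ACTB, the peak ran from 5570029 to 5570297 on chromosome 7 and covered the start site at 5570232. Its summit lay 84 bp downstream, in intron 1. The fold was 4.80 (interval 3.06 to 7.22) with 7.32 as its −log10 q, and it came from 21 fragments (13.0 to 32.1) over a background rate of 3.58. The peak was 269 bp wide and held 44 CpGs, while the island at the start site spans 1532 bp with 204 CpGs. Thus 17.6% of the island's length was under a peak.

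ACTG1 had the broadest of these peaks. It ran from 79478957 to 79482369 on chromosome 17, 3413 bp, and only 3 peaks of the list were wider. It held 363 CpGs, covered 90.8% of a 4191 bp island and had its summit 1208 bp upstream of the start site, 40 bp from an annotated start of a long non-coding RNA (ENSG00000229848). The fold was 8.72 (5.94 to 12.4) from 29 fragments over a rate of 2.44. A second peak, from 79477858 to 79478626, had its summit in coding exon 5, 1742 bp downstream of the start site, with a fold of 5.93 from 12 fragments. Another, from 79485840 to 79486821, lay inside the gene record 6071 bp upstream of the canonical start site and 170 bp from a start of the same non-coding RNA. Its fold of 2.73 came from 32 fragments over a rate of 11.1, the highest background among the peaks of these genes.

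The α-tubulin genes lie near each other on chromosome 12 and held both the highest and the lowest fold among the strongest start site peaks of the 9 genes. At TUBA1A the peak from 49582247 to 49582876 had a fold of 13.7 (8.69 to 20.6) at a −log10 q of 21.8. It rested on 21 fragments over the genome-wide rate of 0.611. Its summit lay in intron 1, 298 bp downstream of the start site and 46 bp from a start of a longer TUBA1C transcript that runs the other way, so the same peak also falls in the TUBA1C record. The peak covered 80.3% of the island, and its fold was higher than that of 92.0% of the list.

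TUBA1B carried a peak from 49524420 to 49525548, 1129 bp wide with 117 CpGs. This peak had its summit 120 bp upstream of the start site and 91 bp from a start of the long non-coding RNA TUBA1B-AS1. Its fold was 9.57 (6.09 to 14.4), again from 21 fragments, over a rate of 1.30. At TUBA1C the start site peak from 49658921 to 49659250 was the weakest of the 9 genes. Its fold of 4.04 (2.0 to 7.52) and −log10 q of 2.68 rested on 8 fragments (3.45 to 15.8), and 0.505% of the peaks in the list had fewer. The peak began 56 bp downstream of the start site, with the summit in the 5′ untranslated exon 1. A further peak in the long TUBA1C record, from 49628222 to 49628598, lay 30503 bp upstream of the canonical start site, with a fold of 10.9 from 31 fragments.

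The β-tubulin start site peaks had folds from 5.07 to 6.49, and their intervals overlapped. TUBB2A had a peak from 3157419 to 3158048 on chromosome 6 with a fold of 5.43 (3.37 to 8.32), from 19 fragments over a rate of 2.69. Its summit was in intron 1, 162 bp downstream of the start site, and the peak held 81 CpGs. TUBB3, the β-tubulin known as a marker of neurons, had a peak from 89989373 to 89990105 on chromosome 16 with a fold of 6.49 (4.32 to 9.40), from 26 fragments over a rate of 3.16. Its summit too lay in intron 1, at 170 bp. A second TUBB3 peak in the same intron, from 89992185 to 89993175, had the higher fold of 10.2 (6.62 to 15.1), from 23 fragments over a rate of 1.35, and its summit was 3189 bp from the start site.

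At TUBB4B, a broadly expressed β-tubulin, the peak from 140134847 to 140135379 on chromosome 9 did not reach the start site. It ended 360 bp upstream, with its summit at 674 bp upstream, although the island runs through the start site and holds 210 CpGs, of which 63 were under the peak. The 48 fragments (35.4 to 63.6) were the most at any of the 9 start sites and exceeded those of 97.8% of the list, but the background rate of 8.67 was also the highest of the 9, and the fold was 5.07 (3.76 to 6.68).

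TUBG1, the γ-tubulin gene, had a peak from 40761039 to 40761858 on chromosome 17 with a fold of 5.39 (3.17 to 8.68), from 15 fragments over a rate of 1.97. The summit was 5 bp upstream of the start site. The peak covered the whole of the 702 bp island with its 73 CpGs. The start site of RETREG3 lies 309 bp away, in the other direction of transcription, so the peak belongs to a shared promoter.

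Summits fell on both sides of the start sites. In 7 of the 9 genes the strongest peak covered the start site, against 61.3% of the 8364 coding start sites with a peak, and in 5 of the 9 the summit was downstream, against 70.6%. Of the CpGs within 1000 bp of the start site, the share under a peak was 96.5% at ACTG1, 83.0% at TUBA1B, 61.1% at TUBA1A, 58.5% at TUBG1, 55.2% at TUBB3, 53.3% at TUBB2A, 29.6% at TUBB4B, 21.6% at ACTB and 17.7% at TUBA1C. Thus the listed enrichment took in the largest shares of the promoter CpGs at ACTG1 and TUBA1B, and the smallest at ACTB and TUBA1C.

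**Figure D2:**
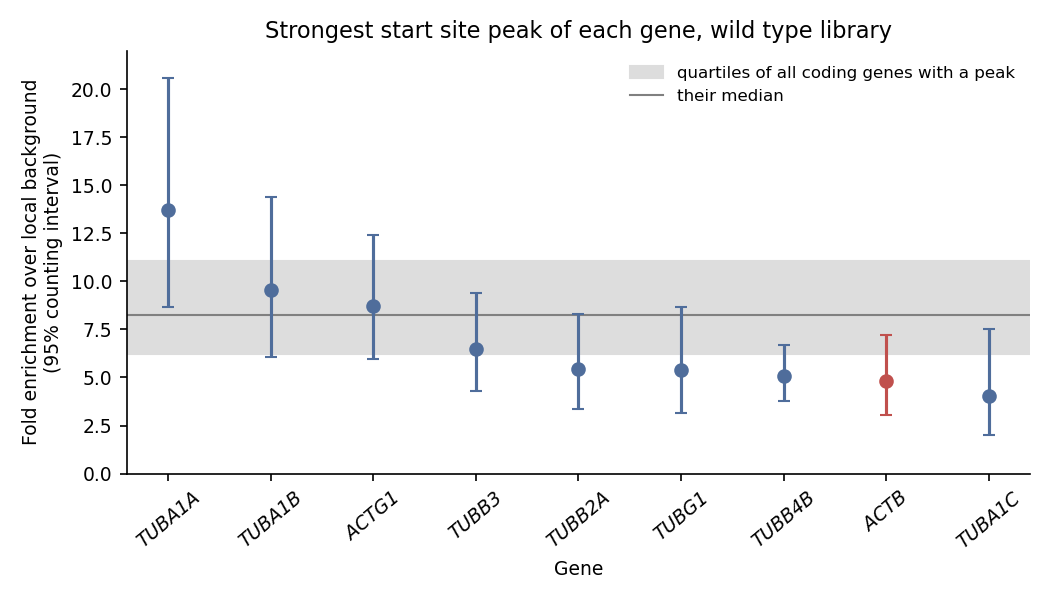
Fold enrichment of the strongest start site peak of each gene in the wild type library, with 95% Poisson counting intervals, above a grey band for the quartiles of the 8364 protein-coding genes with a peak and a line at their median of 8.264. TUBA1A at 13.7, TUBA1B at 9.57 and ACTG1 at 8.72 lie above the line, and the other 6 genes, ACTB in red at 4.80 among them, lie below it.

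ACTB was then set beside the other genes. By fold the order was TUBA1A, TUBA1B, ACTG1, TUBB3, TUBB2A, TUBG1, TUBB4B, ACTB and TUBA1C. Counting intervals of neighbours in this order overlapped throughout. That of TUBA1A lay above those of TUBB2A, TUBG1, TUBB4B, ACTB and TUBA1C, with its lower end at 8.69. ACTB ranked 8 of 9 by fold, and its 4.80 was higher than the strongest fold of 10.9% of the 8364 coding genes with a peak. The median of the 9 genes was 5.43, against 8.264 over the coding genes.

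The same order did not hold for fragments. ACTB had 21, as had TUBA1A and TUBA1B, against a median of 17 over the coding genes, and ranked 4. What differed was the background rate, which was 3.58 at ACTB, 1.30 at TUBA1B and 0.611 at TUBA1A, with a median of 0.7199 over the coding genes. The ACTB rate corresponded to 204 control reads over 10000 bp around the summit. The bounds that follow assume that the highest of several windows set the background, since the settings of the peak calling were not given. On that assumption, at most 5 control reads can have lain over the ACTB summit itself. The 21 fragments were then at least 6.05 times the scaled control there. The like bound was 5.76 at TUBB4B, the lowest of the genes, 13.9 at ACTG1 and 30.3 at TUBA1B. At TUBA1A, on the same assumption, no control read lay over the summit. In 6 of the 9 genes the 10000 bp window set the background, and 8 of the 9 had a rate above the median of the list. How many of all listed peaks took the 10000 bp window was not counted. The genome-wide rate set the background at 1 of the 9 genes and at 3706 of the 12864 listed peaks. What raised the control over these windows was not tested.

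**Figure D3:**
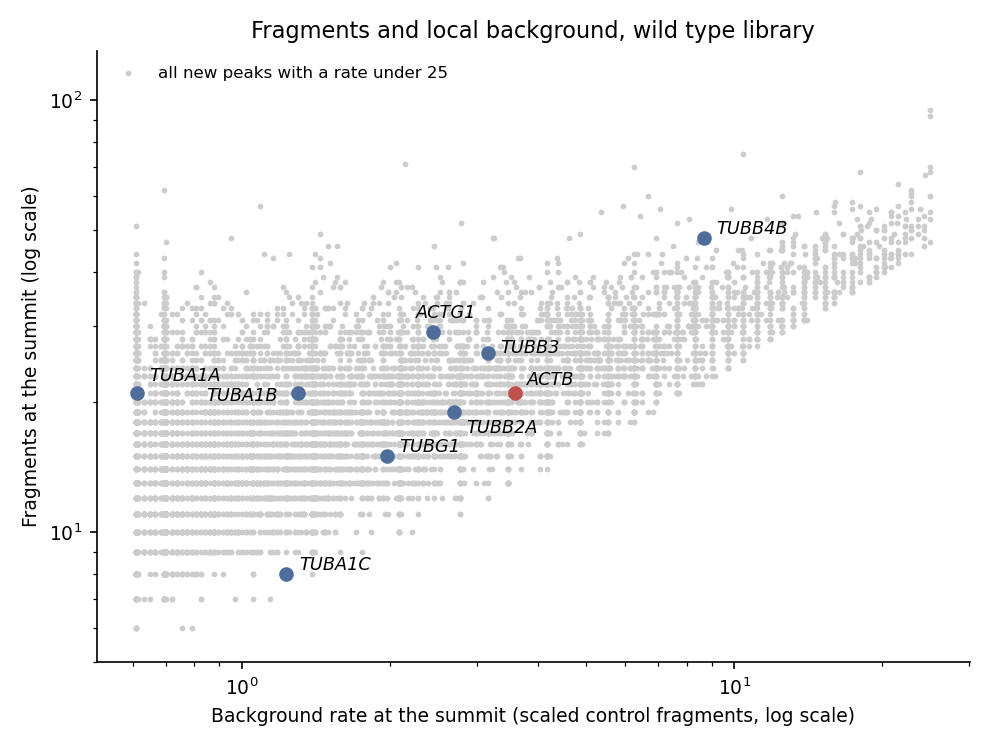
Fragments at the summit against the recovered background rate, both on log axes, for all new peaks with a rate under 25 (grey; 170 peaks have a higher rate) and for the strongest start site peak of the 9 genes. ACTB (red), TUBA1B and TUBA1A sit at the same height of 21 fragments but at rates of 3.58, 1.30 and 0.611, and TUBB4B stands highest at 48 fragments over 8.67.

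ACTB also had the narrowest and densest peak of the genes. The shortest peak of the list was 253 bp, taken as the fragment length, so the ACTB width was near the smallest listed. The 269 bp of ACTB compare with 330 bp at TUBA1C and a median of 681.5 bp over the other 8 genes. Of the coding genes with a peak, 5.37% had a narrower one. The density of 16.4 CpGs per 100 bp exceeded that of 99.8% of those peaks. Among the other 8 genes it ran from 6.97 at TUBA1C to 12.9 at TUBB2A. With 204 CpGs within 1000 bp of the start site, ACTB stood at the 96.6th percentile of coding genes, behind TUBB4B with 213 and just above ACTG1 with 198.

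CpG number of the promoter went with the share of genes that had a peak. Across protein-coding genes, 0.976% of those with under 50 CpGs within 1000 bp of the start site had a peak, 29.2% with 50 to 99, 65.7% with 100 to 149, 79.0% with 150 to 199 and 78.8% with 200 or more. No cytoskeletal gene of the 10 was in the lowest class, and 8 of them were above the coding median of 96 CpGs. TUBA1A with 90 CpGs and TUBB with 82 shared the class in which 29.2% had a peak, and of these TUBA1A had the highest fold of the 10 genes and TUBB no peak. The 8 genes with 130 CpGs or more all had one. The median fold of the strongest peak was nearly flat over these classes, between 7.86 and 8.73.

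**Figure D4:**
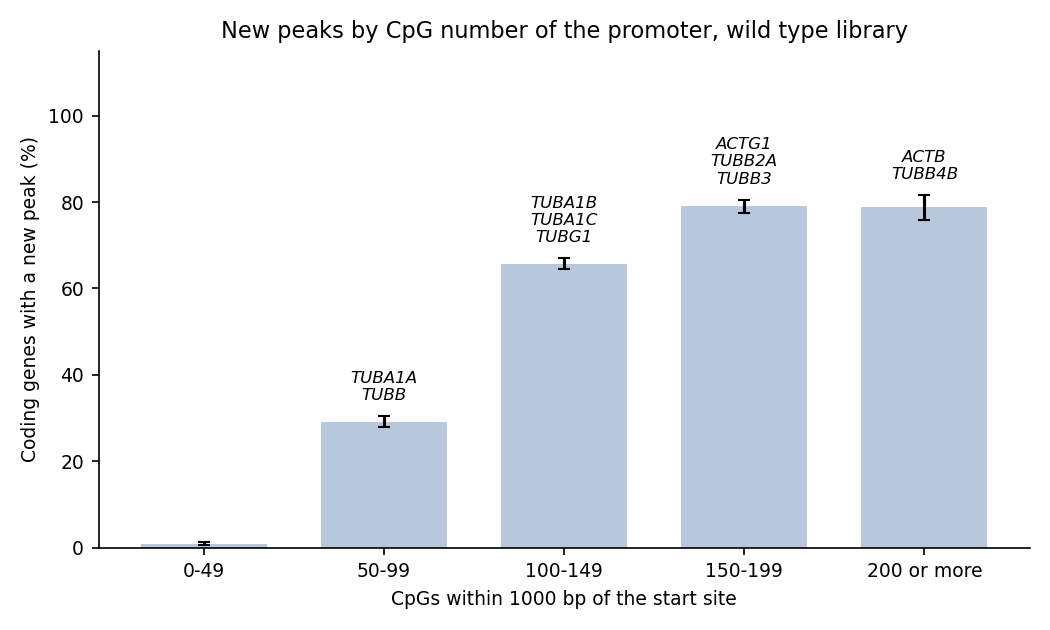
Share of protein-coding genes with a new peak within 1000 bp of the start site, in percent with exact 95% binomial intervals, by the number of CpGs within 1000 bp, with the 10 genes named above their class. The share climbs from 0.976% to 79.0% and 78.8%, and the 8 genes of the upper 3 classes all have a peak.

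Promoters of 9 of the genes, 250 bases before to 50 after the start, were found in the RefSeq table (GRCh38.p14), and ACTB had no entry. TUBA1C had 3 entries, and TUBB and TUBB3 had 2 each. For each gene the entry nearest to the start site used here was taken, and in all 9 it had that start site. On either strand, GGGCGG, the core of the Sp1 motif, occurred in 7 of 9, against 44.9% of 35093 promoters, and CCAAT, the NF-Y motif, in 7 of 9, against 34.6%. TATAAA was found in TUBB2A alone, against 11.5% of promoters, and CACGTG in ACTG1 and TUBA1C, against 7.26%. CCGGAA was in none, against 17.3%. TUBB had both GGGCGG and CCAAT. These matches describe the letters only. The 35093 promoters were not limited to islands and may include several entries of a gene. Their median was 14 CpGs in 300 bases, while the 9 promoters held from 16 (TUBA1A) to 50 (ACTG1). GGGCGG itself holds a CpG, and no share over island promoters was computed for the motifs.

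TUBB, whose product is the main β-tubulin of many dividing cells, stood apart. Its start site at 30688129 on chromosome 6 lies in an island of 272 bp with 27 CpGs, the only island of the 10 genes that failed the stricter criteria of at least 500 bp and 55% GC. The nearest new peaks were 477146 bp away on one side, where one with a fold of 4.85 runs from 31165275 to 31165527, and 2273025 bp away on the other. At ACTB, by comparison, the next peaks beyond its own lay 101026 bp and 62035 bp off. The neighbourhood of TUBB was looked at after this was seen. Between 29 and 33 Mb of chromosome 6, which holds the major histocompatibility complex, 2 of 155 coding genes had a start site peak (1.29%), against 432 of 891 on the rest of the chromosome (48.5%). Among those that start in an island the counts were 2 of 60 (3.33%) and 399 of 598 (66.7%). The median CpG number of these island promoters was 106 in the region and 117 outside it.

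The list also names 5 haplotype contigs of chromosome 6, which are alternate copies of that region in hg19, with 5 peaks in all, so the authors' reference held these copies. The sequence used here does not, and within it every word of 100 bases around the TUBB start site was unique. The part of the alternate copies in the missing peak was not tested. A place is listed only where it passed the authors' threshold, so the absence of a peak is no measurement of methylation at TUBB.

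The other genes of both families were counted in the same way. Of 19, 6 had a peak at the canonical start site (31.6%, against 42.1% of all coding genes). All 6 were among the 12 that start in an island, where the share over coding genes was 60.2%. The 6 were TUBG2, the second γ-tubulin, with a fold of 12.1, TUBD1 with 9.14, TUBB4A with 8.37, TUBA4A with 4.75, TUBB2B with 3.69 and TUBB6 with 3.67. None of the 5 muscle-type or minor actins ACTA1, ACTA2, ACTC1, ACTG2 and ACTBL2 had one, and of these ACTA1 alone starts in an island. The other tubulins without a peak were TUBA3C, TUBA3D, TUBA3E, TUBA8, TUBAL3, TUBB1, TUBB8 and TUBE1. With the start sites of all transcripts the count was 7 of 19, and gene bodies were not searched for this list.

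Of the proteins that fold, nucleate and bind actin and tubulin, 28 of 40 genes had a start site peak (70.0%), against 42.1% of all coding genes. All 28 were among the 37 that start in an island, where the share over coding genes was 60.2%. Their median fold was 8.67. Among the tubulin folding cofactors 4 of 5 had one, from TBCB at 5.57 to TBCA at 11.8, and TBCE, which does not start in an island, had none. For the γ-tubulin ring complex, which nucleates microtubules together with the TUBG1 product, the count was 7 of 9, from MZT2B at 4.75 to 10.6 at MZT1 and MZT2A, and TUBGCP2 and TUBGCP6 had none.

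The Arp2/3 complex, which starts branched actin filaments, had a peak at 4 of 8 genes. All 8 start in an island, where the share over coding genes was 60.2%. ARPC1A was lowest at 7.37 and ARPC2 highest at 10.6, and ACTR3, ARPC1B, ARPC3 and ARPC4 had none. Of the monomer binding and capping proteins 8 of 10 had a peak, from CAPZA2 at 6.83 to 12.4 at TMSB10 and PFN2, and CAPZA1 and TMSB4X had none. Of the microtubule-associated genes 5 of 8 had one, from STMN1 at 6.61 to MAP1B at 18.6, and MAP1A, MAP4 and MAPRE1 had none. The fold of MAP1B was above those of all the actin and tubulin genes.

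**Figure D5:**
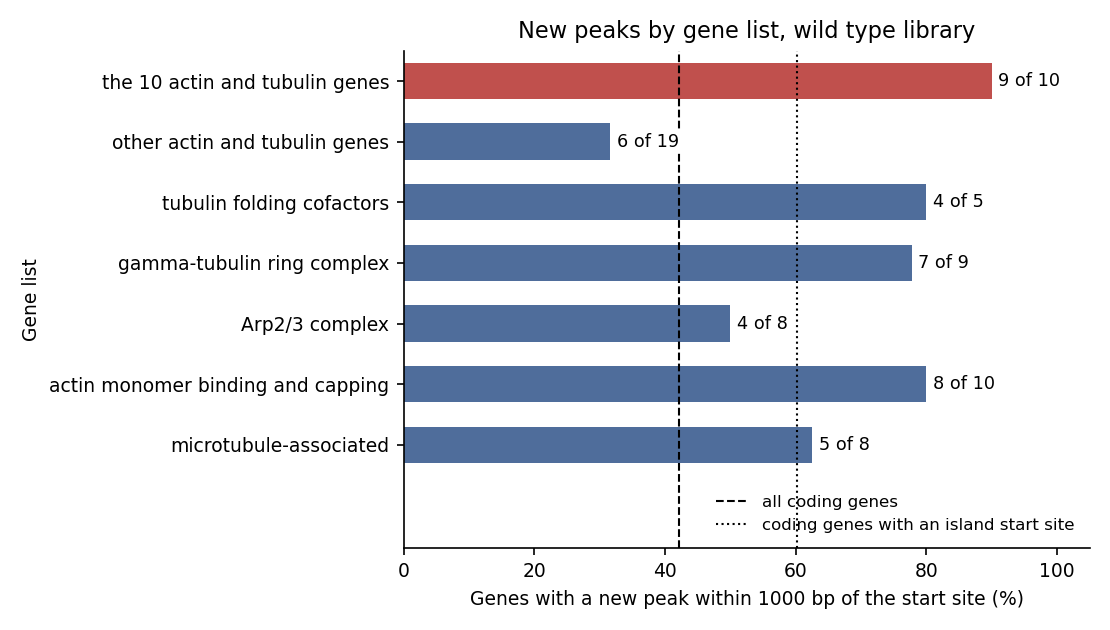
Share of genes with a new peak within 1000 bp of the start site, in percent, for the 10 actin and tubulin genes (red), the other genes of both families and 5 lists of the machinery (blue), with the number of genes beside each bar. The dashed line is the share of all protein-coding genes, 42.1%, and the dotted line that of genes with a start site in a CpG island, 60.2%. The 10 genes reach 9 of 10 and the other family genes 6 of 19.

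The pseudogenes of actin and tubulin were counted over their start and body. Of 84 in the annotation, 1 had a peak (1.19%), against 2.31% of all 15013 pseudogenes. It was ACTG1P25 on chromosome 1, whose peak from 202830624 to 202830916 had a fold of 5.13 from 8 fragments. The record of ACTG1P25 runs from 202830882 to 202844369 and holds 205 CpGs, and the peak overlaps only its first bases. Over the 84 copies the median was 25 CpGs.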

How the data were processed

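MBD2-pulldown libraries of 4 conditions were made, 1 each, of which the wild type library has the deposited peak list used here. Members and gene lists were chosen with earlier results of these data known. According to the methods, Bowtie2 with default settings was used by the authors to align reads to hg19. The submitters' processing notes also name FastQC, deepTools and MACS2, with no versions. Settings of the peak calling were not given in the sources used here.

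The deposited columns used are the authors' fold (a ratio of summit to local background), the −log10 p-value and −log10 q-value and the summit offset. The authors' score was not used. All 12795 peaks on chromosomes 1 to 22, X and Y end within the chromosome lengths of GRCh37. Another 69 peaks lie on other sequences.

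Start sites came from GENCODE release 44 lifted to GRCh37. A peak was counted with at least 1 bp of overlap. The islands are segments built with scores of 17 per CpG and -1 per other base, kept if longer than 200 bp with at least 50% GC and an observed/expected ratio over 0.6, without repeat masking. Fragments k and background rate were recovered as the whole number for which fold = (k + 1)/(rate + 1) and a Poisson tail give the listed values, with a largest misfit of 0.000403 in −log10 p. The rates were whole multiples of a control read worth 0.694, over 253 bp (taken as the fragment length), 1000 bp or 10000 bp, or the genome-wide 0.611. That the control is the untreated library is an inference from the authors' description. The total depth is unknown from the list, and precision is set by 8 to 48 fragments at the start site summits. No test was run, for lack of replicates, and PCR duplicates may remain in the counts.

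Named genes were the 10 genes, neighbours with a start site within 1000 bp, the highest and lowest of each list and those without a peak. Of the other lists, the genes of both families were all named. Sequences shown are up to 120 bases near a summit outside untranslated exons, and that of ACTB is not reported here. Alternatives covered distance, threshold, overlap, transcripts, background and island criteria. Steps were tested on simulated data. Scripts ran under Python 3.11.15, with samtools 1.23.1, pysam 0.24.0, scipy 1.17.1, numpy 2.4.6, matplotlib 3.10.9, numba 0.67.0 and pandas 2.3.3.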

Additional observations from a re-analysis of the deposited data

How the results depend on the processing

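Of 86 alternatives computed, 55 stayed within 1.5 times for a count, or within the counting interval for a fold. The pair that leaves out chromosome 6 from 29 to 33 Mb was chosen after seeing the data. It gave 9 of 9 genes and 8362 of 19726 coding genes (42.4%) with a peak. The member count stayed at 9 with 500 or 2000 bp and with all transcripts' start sites, and was 8 by the summit, which leaves out ACTG1. With peaks of at least the median fold it fell to 3 genes (ACTG1, TUBA1A and TUBA1B), against 5145 coding genes (25.9%). At this threshold, 3 other actin and tubulin genes and 0 pseudogenes had a peak. The member count with the gene body was 5, and no share over coding genes with the body was computed at this threshold. With a −log10 q of at least 10 the counts were 5 genes, 4951 coding genes (24.9%), 3 other family genes and 0 pseudogenes. These lists hold fewer peaks by construction. The pseudogene count was 2 at 2000 bp, and 0 by the summit or with 50% of the peak inside.

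Over the genome-wide background the ratios were 34.4 for ACTB, TUBA1A and TUBA1B, 47.5 for ACTG1, 13.1 for TUBA1C, 31.1 for TUBB2A, 42.6 for TUBB3, 78.6 for TUBB4B and 24.6 for TUBG1, and ACTB ranked 4, as it did by fragments at the summit. Without the pseudocount TUBA1A reached 34.4 and TUBA1B 16.2. In the 500 bp around the summit the CpGs numbered 74 at ACTB, 47 at ACTG1, 59 at TUBA1B, 46 at TUBA1C, 60 at TUBB3 and 47 at TUBG1, in place of those in the whole peak. No paired analysis was possible because each condition had 1 library. With 8 fragments, TUBA1C is the least certain of the 9 peaks.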
